A study of Homo sapiens with 96 samples.

Results

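RPF2, CAPZA1, PTPLAD1, BLMH, C1orf198 and MBNL1 are 6 genes whose RNA and ribosome footprints were low throughout a circadian day in U2-OS cells given siRNA against the clock gene Bmal1. They were chosen from earlier results of these data as strong falls that the rule calls steady at all 12 times. In RNA this held best for PTPLAD1 and BLMH, and the other falls changed over the day by more than replicates did. The members are 6 of the 19438 genes in the deposited tables, and the rule names them without setting a threshold. Their knockdown values, and the steadiness of those values over time, therefore describe the choice and carry no test. They are set beside ARNTL, the gene symbol under which the tables list Bmal1.

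U2-OS is a human osteosarcoma line, and the cells used here carried a luciferase reporter under the Per2 promoter. The knockdown cells received 120 pmol of a mix of 5 siRNAs against Bmal1 and were plated at 0.56 M cells per 15 cm plate. No siRNA was given to the wild-type cells, of which 2.25 M were plated. Both were synchronised with 0.1 µM dexamethasone, a glucocorticoid that resets the clock, treated with 100 µg/mL cycloheximide to hold ribosomes on mRNA, and collected from 24.5 h every 2 h, at times labelled CT0 to CT22. Each treatment and time has 2 replicates of total RNA and 2 of footprints, which gives 24 libraries per treatment and assay and 96 in all. No control siRNA is in the labels, so the siRNA sequences, transfection, seeding density and loss of Bmal1 cannot be told apart in the knockdown difference. Whether replicates came from separate cultures is not given, so p-values reflect the scatter of these libraries, which may be technical.

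Total RNA libraries held 13.6 to 20.1 M reads in 46 cases, and the knockdown libraries of replicate 2 at CT14 and CT18 held 2.66 and 2.56 M. Footprint libraries held 2.50 to 5.82 M. Of 5 osteoblast and mesenchymal markers, 4 averaged at least 1 CPM (reads of a gene per M reads of its library, after scaling) in both treatments, and their summed RNA level was 3406 to 4141 CPM in knockdown and 2971 to 3444 CPM in wild-type libraries. Most of this sum was VIM, with means of 2400 CPM in knockdown and 1980 CPM in wild-type RNA, and SPARC, with 1140 and 1030 CPM. COL1A1 averaged 177 and 180 CPM, and RUNX2 was lower in knockdown, with 10.5 and 15.5 CPM. The fifth marker, COL1A2, a collagen chain, averaged 0.145 CPM in knockdown and 0.0990 CPM in wild-type RNA. Of 3 blood markers, HBB and PTPRC averaged under 0.3 CPM in both treatments, while the sum of the list was 9.84 to 17.6 CPM in knockdown and 1.57 to 3.38 CPM in wild-type RNA, nearly all of it the lysosomal protein gene CD68. The 4 epithelial markers summed to 7.67 to 15.3 CPM in knockdown and 7.35 to 23.7 CPM in wild-type RNA. They did not move together. CDH1 averaged 3.88 CPM in knockdown and 1.64 CPM in wild-type RNA, and EPCAM 2.01 and 3.93 CPM. CLDN4 averaged 4.77 and 5.26 CPM, and KRT14 0.932 and 1.31 CPM. The part of CD68-expressing cells in the falls below was not tested, and fewer cells of a type cannot be told apart from less RNA per cell in bulk lysates.

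BMAL1 pairs with CLOCK and activates genes that carry E-boxes, among them the Per, Cry and Rev-erb genes, whose products feed back on the pair. ARNTL is itself switched on and off over the day by ROR and REV-ERB proteins at ROR elements in its promoter. An siRNA guides Argonaute to matching mRNA and can also lower mRNAs that match it in part. The 6 genes have separate roles: RPF2 in ribosome assembly, CAPZA1 in actin filament capping, PTPLAD1 (now HACD3) in fatty acid elongation, BLMH in peptide breakdown and MBNL1 in alternative splicing. The role of C1orf198 is not established. The siRNA sequences were not used here, so matches between them and the 6 mRNAs were not tested.

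Promoter sequences, 300 bases around each gene's start, were taken from RefSeq (GRCh38.p14) by symbol for 5 of the 6 genes and for ARNTL, under its symbol BMAL1. RPF2 had no entry. Both strands were searched for the E-box core CACGTG, held by 7.26% of 35116 promoters, and for the ROR element core AGGTCA, held by 13.8%. None of the 5 promoters held either motif in this window. The ARNTL promoter held no CACGTG and 1 AGGTCA, which starts at base 32 after the start and is in capitals below. The ARNTL window is printed because it belongs to the siRNA target and to the gene with the clear daily rhythm. The C1orf198 window is printed because C1orf198 was the member whose wild-type level changed most over the day.
ARNTL (BMAL1), chr11:13277540-13277839, plus strand: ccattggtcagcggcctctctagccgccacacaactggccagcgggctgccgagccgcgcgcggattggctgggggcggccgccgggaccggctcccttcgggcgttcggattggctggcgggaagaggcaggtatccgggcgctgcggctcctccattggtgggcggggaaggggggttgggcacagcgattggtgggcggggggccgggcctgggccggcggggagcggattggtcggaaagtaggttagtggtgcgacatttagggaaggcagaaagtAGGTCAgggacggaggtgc
C1orf198, chr1:230869542-230869841, minus strand: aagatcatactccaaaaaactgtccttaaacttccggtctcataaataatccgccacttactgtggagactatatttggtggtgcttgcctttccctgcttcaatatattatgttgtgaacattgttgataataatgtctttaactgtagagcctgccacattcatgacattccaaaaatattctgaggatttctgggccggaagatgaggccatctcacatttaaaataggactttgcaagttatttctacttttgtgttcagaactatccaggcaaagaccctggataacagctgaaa
The C1orf198 window had 38.3% G and C with 3 CG dinucleotides, and the ARNTL window 70.0% with 29. The windows of CAPZA1, PTPLAD1, BLMH and MBNL1 had 60.7%, 67.0%, 78.3% and 67.7%, against a median of 58.7% over all promoters.

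For each of the 6 genes, and for ARNTL, all 24 knockdown libraries lay below all 24 wild-type libraries in both assays. This separation was found for 9.96% of the 13188 genes tested in total RNA and for 5.66% of the 11189 tested in footprints, and since the genes were chosen on this contrast nothing is read from their count. The size of a fall is given as the difference in log2(CPM + 0.25), knockdown minus wild-type, averaged over the 12 times. The SEs given below treat libraries as independent, so they do not carry in full an offset shared by a replicate series. Within replicates 1 and 2 taken apart, the difference was −3.94 and −4.50 for RPF2 footprints and −1.42 and −1.54 for BLMH footprints. For BLMH RNA it was −1.53 in each. The median difference of the 6 genes was −1.50 in RNA and −1.64 in footprints, against 0.01 and −0.01 over all genes tested. Levels are CPM within an assay and are not comparable between genes, because gene lengths were not used. The 2 knockdown RNA libraries with few reads, at CT14 and CT18, set some of the ranges below. They gave the highest knockdown RNA level of RPF2, C1orf198, MBNL1 and ARNTL and the lowest of BLMH and ARNTL.

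**Figure D1:**
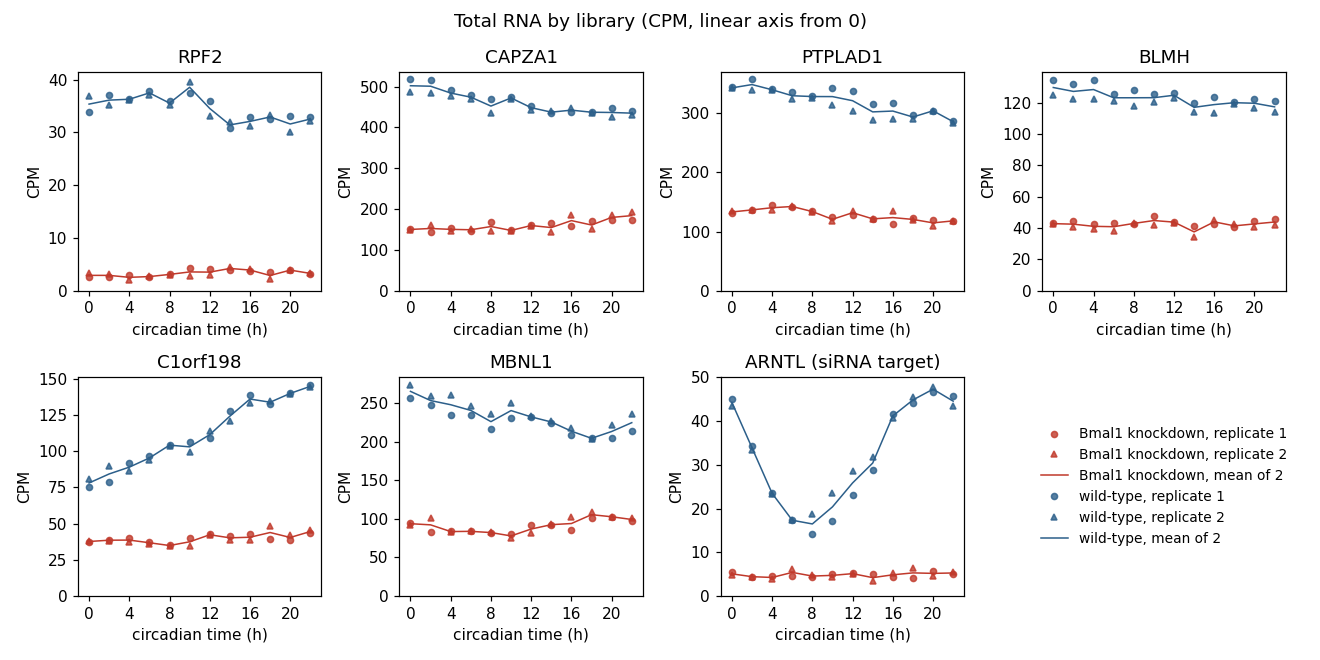
Total RNA level (CPM, linear axis from 0) against circadian time (h) for the 6 genes and ARNTL; circles and triangles are single libraries of replicates 1 and 2, lines are means of 2, red is Bmal1 knockdown and blue wild-type. Every knockdown library sits below every wild-type library, the wild-type C1orf198 level climbs over the day, and wild-type ARNTL dips between CT4 and CT12.

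RPF2 is a nucleolar protein that, in yeast, works with Rrs1 to bring the 5S ribonucleoprotein into the large ribosomal subunit. Its RNA fell furthest of the 6. The 24 knockdown RNA libraries ran from 2.04 through a median of 3.20 to 4.49 CPM, or 6 to 75 reads, and the 24 wild-type libraries from 30.0 through 34.5 to 39.6 CPM, or 479 to 689 reads. The lowest wild-type library was 6.70 times the highest knockdown library, the widest gap among the 6 genes. Footprints ran from 0.540 through 2.40 to 4.12 CPM in knockdown, from 2 to 15 reads, and from 34.3 through 45.0 to 71.6 CPM in wild-type cells. Mean knockdown RNA was 9.47% of wild-type and mean knockdown footprints 5.28%. On the log2 scale the difference was −3.33 ± 0.05 in RNA and −4.22 ± 0.15 in footprints (SE, 24 libraries per treatment), rank 2 among the falls of each assay. With so few knockdown reads the pseudocount matters: at 1 instead of 0.25 the RNA difference was −3.07.

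CAPZA1 encodes an alpha subunit of capping protein, which closes the growing end of actin filaments. Its RNA ran from 144 through 156 to 194 CPM in knockdown libraries and from 425 through 451 to 518 CPM in wild-type libraries. Its footprints ran from 57.6 through 74.7 to 95.0 CPM in knockdown and from 229 through 266 to 338 CPM in wild-type libraries. The fall was larger in footprints: −1.86 ± 0.04, against −1.53 ± 0.02 in RNA.

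PTPLAD1 belongs to the 3-hydroxyacyl-CoA dehydratases that act in very long chain fatty acid elongation. Its RNA ran from 110 through 130.0 to 145 CPM in knockdown libraries and from 284 through 321 to 358 CPM in wild-type libraries. Its footprints ran from 102 through 120 to 144 CPM in knockdown and from 260 through 293 to 335 CPM in wild-type libraries. The falls in the assays were alike in size, −1.32 ± 0.02 in RNA and −1.30 ± 0.03 in footprints, and were the smallest of the 6 in both.

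BLMH is bleomycin hydrolase, a cytosolic cysteine peptidase. Its RNA ran from 34.0 through 42.4 to 47.4 CPM in knockdown libraries and from 114 through 122 to 135 CPM in wild-type libraries. Its footprints ran from 53.2 through 59.3 to 65.8 CPM in knockdown and from 142 through 166 to 183 CPM in wild-type libraries. The falls were −1.53 ± 0.02 in RNA and −1.48 ± 0.03 in footprints, so about the same share of its RNA and of its footprints was left, 34.5% and 35.7% of wild-type.

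Of the 6 genes, C1orf198 had the widest wild-type range relative to its level. Its RNA ran from 34.4 through 38.9 to 48.1 CPM in knockdown libraries and from 75.6 through 108 to 146 CPM in wild-type libraries. Its footprints ran from 33.2 through 43.2 to 54.8 CPM in knockdown and from 75.8 through 124 to 187 CPM in wild-type libraries. The lowest wild-type library was 1.57 times the highest knockdown library in RNA and 1.38 times in footprints, the narrowest gaps among the 6. The mean falls were −1.47 ± 0.02 in RNA and −1.50 ± 0.04 in footprints.

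MBNL1 is a muscleblind protein that binds RNA and steers alternative splicing. Its RNA ran from 75.1 through 92.1 to 109 CPM in knockdown libraries and from 204 through 232 to 274 CPM in wild-type libraries. Its footprints ran from 28.9 through 40.3 to 53.2 CPM in knockdown and from 119 through 134 to 161 CPM in wild-type libraries. The fall was −1.35 ± 0.02 in RNA and −1.79 ± 0.04 in footprints. The antisense gene MBNL1-AS1 averaged 1.46 CPM in knockdown and 2.00 CPM in wild-type RNA, small beside MBNL1. Whether reads were counted by strand is not stated, so reads from the pair cannot be told apart.

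ARNTL, the siRNA target, was low in every knockdown library. Its RNA ran from 3.36 through 4.75 to 6.49 CPM in knockdown libraries and from 14.3 through 32.7 to 47.9 CPM in wild-type libraries. Its footprints ran from 0 through 0.689 to 1.97 CPM in knockdown, at most 6 reads, and from 6.48 through 19.4 to 28.2 CPM in wild-type libraries. The difference was −2.60 ± 0.05 in RNA, rank 10 among the falls, and −4.44 ± 0.17 in footprints, rank 1. At a pseudocount of 1 the footprint difference was −3.51. RPF2 RNA thus lay further below wild-type than the RNA of the target, and the other members ranked between 70 and 139 in RNA and between 40 and 165 in footprints.

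**Figure D2:**
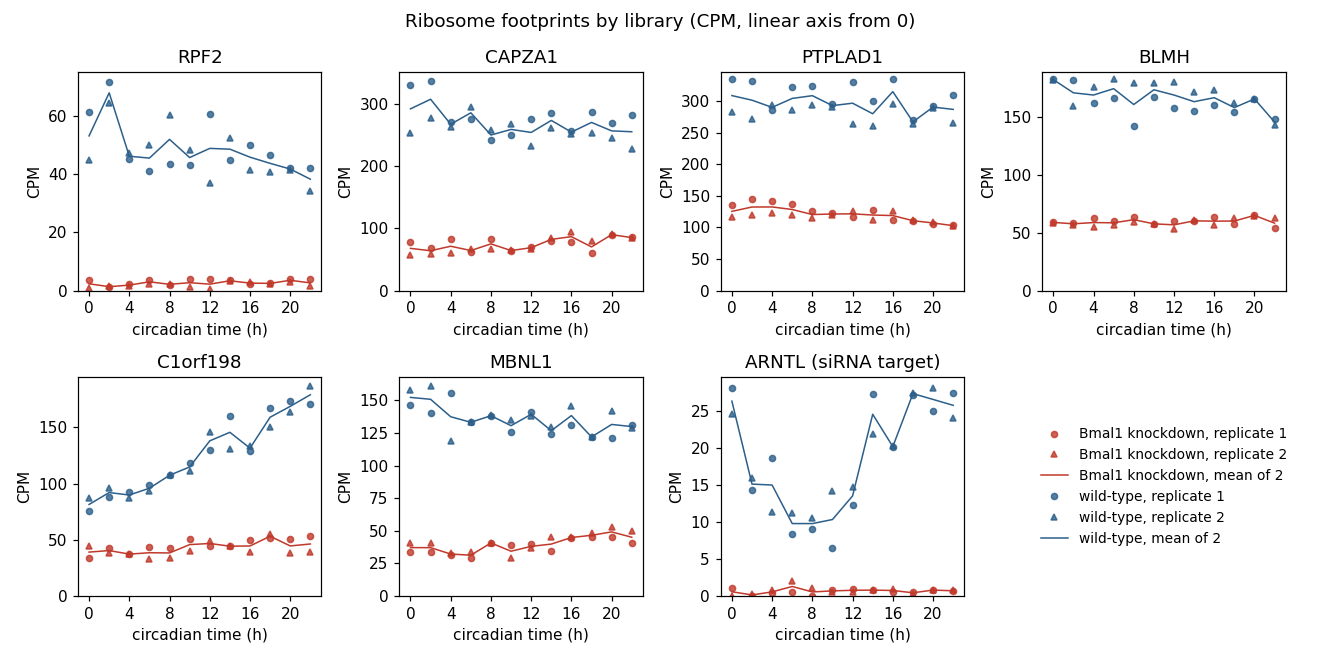
Ribosome footprint level (CPM, linear axis from 0) against circadian time (h) for the same genes, with the same symbols; red is Bmal1 knockdown and blue wild-type. Knockdown libraries lie below wild-type libraries at every time, and ARNTL stays under 2 CPM in all 24 knockdown libraries.

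The members fell into separate patterns when the assays were compared. For RPF2, CAPZA1 and MBNL1, as for ARNTL, footprints fell further than RNA at 12 of 12 times. The footprint minus RNA difference was −0.89 ± 0.16 for RPF2, −0.33 ± 0.05 for CAPZA1, −0.43 ± 0.05 for MBNL1 and −1.84 ± 0.18 for ARNTL (log2, SE). These 3 members and ARNTL kept this sign under each other scaling, filter and pseudocount and without either replicate, although at a pseudocount of 1 the value of ARNTL was −1.07. Such differences were common: of 11149 genes, 2005 were called lower and 1460 higher at the threshold. With the authors' scaling factors 907 were lower and 3714 higher. Counted from the lowest difference, ARNTL ranked 2, RPF2 27, MBNL1 302 and CAPZA1 622. For PTPLAD1, BLMH and C1orf198 the differences were 0.02 ± 0.04, 0.05 ± 0.04 and −0.03 ± 0.05, and footprints fell further at 5, 4 and 7 of 12 times. With the authors' own scaling factors these became 0.12, 0.15 and 0.07, and the median over all genes 0.09, against −0.01 with TMM (trimmed mean of M values) scaling. The log2 ratio of footprints to RNA of MBNL1 was −1.21 in knockdown and −0.77 in wild-type cells, and that of CAPZA1 −1.11 in knockdown and −0.78 in wild-type cells.

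**Figure D3:**
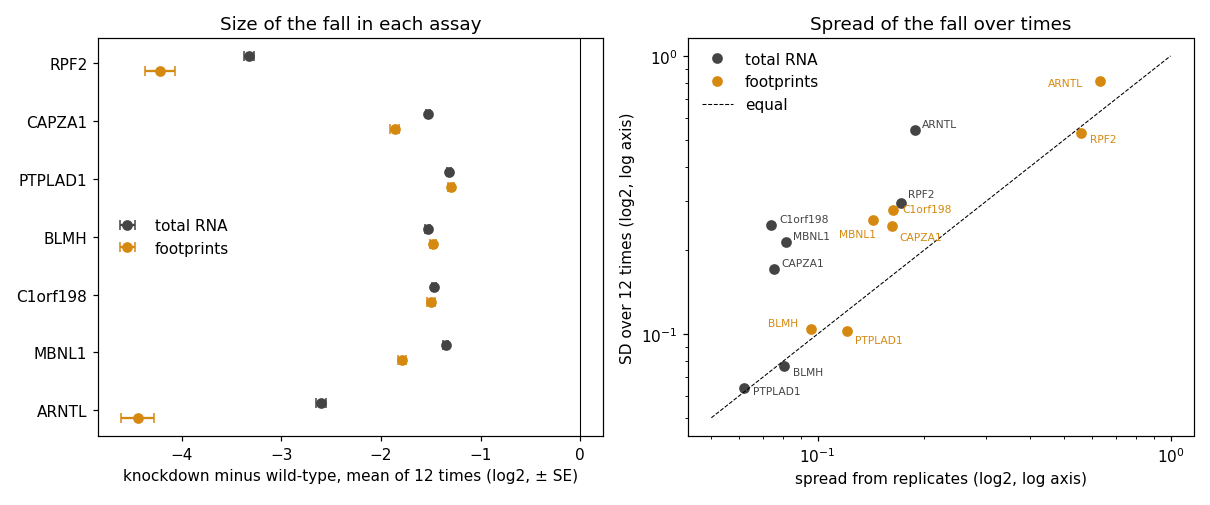
Left, mean knockdown minus wild-type difference over 12 times (log2, bars ± SE) in total RNA (grey) and footprints (orange) for each gene. Right, SD of that difference over the 12 times against the spread that replicates alone give (log2, both axes logarithmic, dashed line equal). PTPLAD1 and BLMH lie near the line in both assays, while C1orf198, ARNTL, MBNL1 and CAPZA1 in RNA lie well above it.

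The falls were not equally flat. The SD of the knockdown minus wild-type difference over the 12 times can be set beside the spread that the scatter of replicates gives on its own. In RNA these were 0.0639 and 0.0617 for PTPLAD1 and 0.0768 and 0.0802 for BLMH, so both lay close to it. Part of this spread is a constant offset, since wild-type RNA of replicate 1 was above replicate 2 at 12 of 12 times for both genes. With the offset between replicate series removed, the spread was 0.0557 for PTPLAD1 and 0.0584 for BLMH, below their SDs over times. Of the 342 genes that passed the threshold and fell at least 2-fold in RNA, 1 had a smaller SD over times than PTPLAD1 and 6 a smaller one than BLMH. In footprints the SD was 0.103 for PTPLAD1 and 0.104 for BLMH, beside replicate spreads of 0.121 and 0.0957 (0.0920 and 0.0882 without the offset), and 2 and 3 of 382 such falls were smaller.

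The other members moved over the day by more than replicates did in RNA. The SD over times was 0.172 for CAPZA1 beside a replicate spread of 0.0752, 0.214 for MBNL1 beside 0.0812, 0.247 for C1orf198 beside 0.0740 and 0.295 for RPF2 beside 0.172. In this order, 59, 106, 135 and 196 of the 342 strong falls had a smaller SD. The falls of CAPZA1, MBNL1 and C1orf198 thus had smaller SDs than most falls of this size without being flat, while more than 1 in 2 had a smaller SD than RPF2. These SDs include read noise, which is smaller for genes with many reads. Only 2.07%, 6.02% and 17.1% of genes tested had higher wild-type RNA than CAPZA1, MBNL1 and C1orf198. The SD of ARNTL was 0.541 beside 0.188, and 330 of the strong falls had a smaller one. In footprints, RPF2 had an SD of 0.528 beside a replicate spread of 0.559 (0.480 without the offset) and ARNTL 0.812 beside 0.632. Leaving out the 2 shallow libraries gave RNA SDs of 0.0651 for PTPLAD1, 0.0701 for BLMH, 0.180 for CAPZA1, 0.206 for MBNL1, 0.255 for C1orf198, 0.285 for RPF2 and 0.571 for ARNTL.

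The shapes over the day also differed. CAPZA1 RNA was furthest below wild-type at CT0, at −1.74, and nearest at CT22, at −1.24. C1orf198 ran the other way, with −1.05 at CT0 and −1.79 at CT20, so that 48.2% of the wild-type RNA level was left at CT0 and 28.9% at CT20. MBNL1 had −1.62 at CT10 and −0.96 at CT18, and RPF2 −3.74 at CT4 and −2.83 at CT14. The knockdown means at CT14 and CT18 include the shallow libraries of replicate 2, with 12 reads of RPF2 at CT14 and 286 of MBNL1 at CT18. ARNTL had −1.66 at CT6, when its wild-type level was near its trough of 16.5 CPM, and −3.14 at CT20, when it was at its peak of 47.3 CPM. Its mean knockdown level stayed between 4.18 and 5.38 CPM at all times, so the change of its difference followed the wild-type level.

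**Figure D4:**
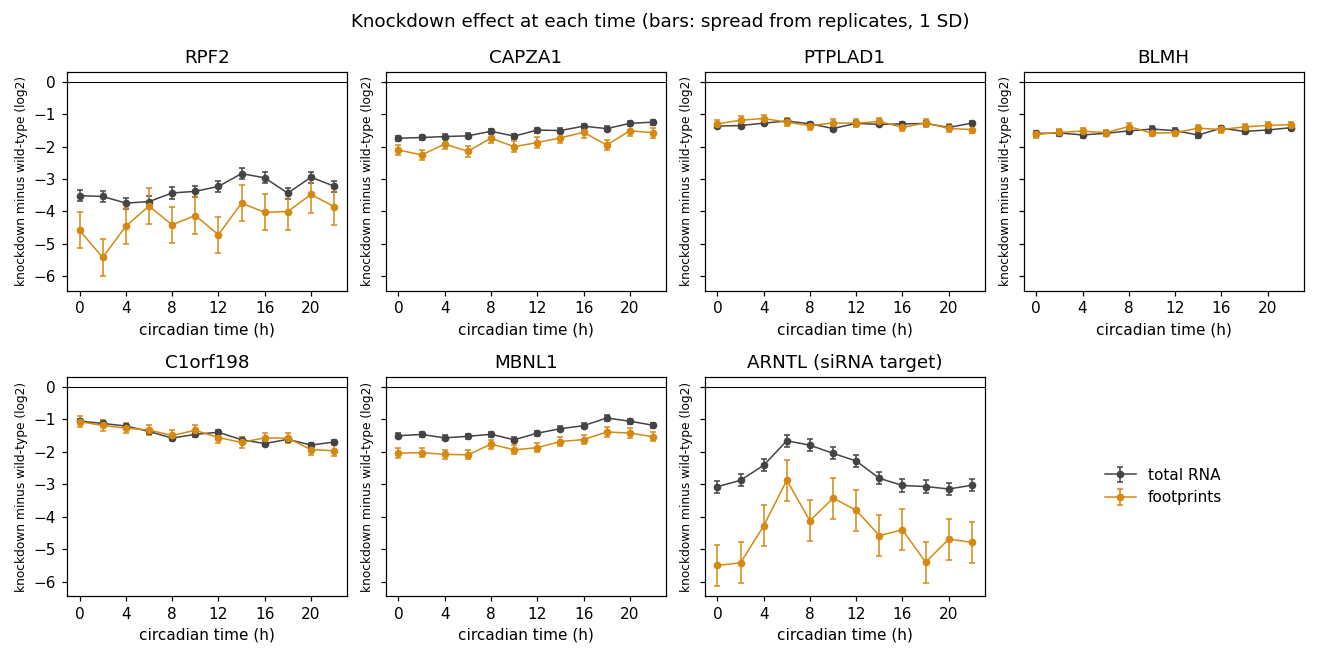
Knockdown minus wild-type difference (log2) at each circadian time (h) in total RNA (grey) and footprints (orange) for the 6 genes and ARNTL; bars are 1 SD of the spread from replicates and the line at 0 is no difference. PTPLAD1 and BLMH vary least over the day, C1orf198 drops from −1.05 at CT0 to −1.79 at CT20, and ARNTL is closest to 0 at CT6.

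Genes lower in knockdown at all 12 times in both assays were common: 2116 of the 11149 tested in both, or 19.0%. Those that also fell in each assay at least as far as the smallest of the 6 numbered 83 (0.744%), and those with SDs over times no larger than the largest of the 6 in each assay numbered 48 (0.431%). With SDs no larger than the largest among CAPZA1, PTPLAD1, BLMH and MBNL1 in each assay, a limit that RPF2 and C1orf198 exceed, 17 genes (0.152%) were left. Besides these 4, they were UGT8, IFIT1, EDIL3, ABCB10, TNS3, MATN2, ARPC5, IGFBP7, EFEMP1, SDC2, PMP22, CTSL2 and TK1. EFEMP1, an extracellular matrix protein gene, had RNA and footprint differences of −1.43 and −1.48 with SDs over times of 0.0870 and 0.112. EDIL3, another secreted matrix protein gene, had −1.66 and −1.68 with SDs of 0.129 and 0.152. Among larger falls, NR1D2, a Rev-erb gene and E-box target of BMAL1, had an RNA difference of −2.85 ± 0.03 that ranged from −3.16 at CT8 to −2.47 at CT18, and RASSF2 had −3.17 ± 0.06 with an SD of 0.136 beside a replicate spread of 0.238.

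The genes nearest to each member over its 24 differences, 12 times in 2 assays, were found by root mean square distance among 10954 genes. CAPZA1 and MBNL1 were the nearest gene of each other, at 0.201. PTPLAD1 was nearest to FKBP9, at 0.101, and PHGDH, an enzyme of serine synthesis, at 0.154. BLMH was nearest to ARPC5, an Arp2/3 complex subunit, at 0.132, and EFEMP1, at 0.164. C1orf198 was nearest to WDR76, at 0.169, and SDC2, a syndecan, at 0.173. The gene next to RPF2 was TNNT2, cardiac troponin T, at 0.643, and then ARNTL at 0.924. With few knockdown reads, the replicate spread in footprints was 0.559 for RPF2 and 0.79 for TNNT2. The distance of 0.643 therefore cannot show whether RPF2 and TNNT2 differed. These distances describe likeness in these libraries only.

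The choice of genes used the knockdown minus wild-type difference at each time, so the wild-type and knockdown time courses both entered it. A rhythm in either treatment without a like one in the other was selected against. Counts of rhythmic members and their p-values are therefore a description in both treatments. Rhythm within each treatment was tested with a cosine and a sine of 24 h by limma, adjusted over all genes tested with the Benjamini-Hochberg method. Amplitudes are log2 heights of the fitted peak above the mean. In wild-type RNA 5 of the 6 genes passed an adjusted p of 0.05, where 23.1% of 12682 genes did. C1orf198 had the largest amplitude, 0.34 ± 0.05 with a fitted peak at CT16.7 (adjusted p = 0.000348, limma). The amplitudes of RPF2 (0.12 ± 0.02, adjusted p = 0.00121), MBNL1 (0.12 ± 0.02, adjusted p = 0.00414), PTPLAD1 (0.10 ± 0.02, adjusted p = 0.00311) and CAPZA1 (0.08 ± 0.02, adjusted p = 0.00448) were small, with fitted peaks between CT3.87 and CT6.01. BLMH had an amplitude of 0.05 ± 0.02 and an adjusted p of 0.118, against 0.0222 with the replicate series as a block, a fit in which 4935 genes passed in place of 2935. Without replicate 1, CAPZA1 did not pass (adjusted p = 0.0847), and without replicate 2, PTPLAD1 (adjusted p = 0.0508) and MBNL1 (adjusted p = 0.078) did not. ARNTL had an amplitude of 0.75 ± 0.04 and a peak at CT20.0 (adjusted p = 4.55e-11), a 2.81-fold range from trough to peak where C1orf198 had 1.60-fold and the other 5 members 1.07- to 1.18-fold.

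None of these members returned over the day as ARNTL did. Wild-type C1orf198 RNA was 145 CPM at CT22 and 78.1 CPM at CT0, a ratio of 1.86, and its footprints 179 and 81.4 CPM, a ratio of 2.20. In the other 5 genes the ratio of CT22 to CT0 in wild-type RNA was 0.833 to 0.920, and for ARNTL it was 1.01. With a linear drift added to the fit, the wild-type RNA amplitude was 0.04 ± 0.03 for C1orf198 and 0.10 ± 0.03 for RPF2, and none of the 6 passed (adjusted p = 0.682 for RPF2 and 1 for the other 5). ARNTL kept an amplitude of 0.86 ± 0.05 (adjusted p = 8.01e-12), and 24 genes in all passed with the drift, so 1 day of sampling leaves a slow trend and a 24 h rhythm hard to separate for the members.

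In wild-type footprints 1 of the 6 passed, where 6.97% of 10736 genes did. C1orf198 had an amplitude of 0.42 ± 0.06 and a peak at CT16.9 (adjusted p = 0.00082), and 0.04 ± 0.05 with a drift (adjusted p = 0.991). The adjusted p of the other 5 lay between 0.418 and 0.764, with SEs of the amplitude of 0.03 to 0.07. A p that misses the threshold does not show that they were constant. ARNTL had 0.77 ± 0.08 (adjusted p = 4.45e-06).

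In knockdown RNA 5 of the 6 genes passed, where 33.7% of 12765 genes did. MBNL1 had an amplitude of 0.17 ± 0.02 with a peak at CT19.8 (adjusted p = 2.56e-05), and it was the member that still passed with a drift, at 0.17 ± 0.03 (adjusted p = 0.0018). CAPZA1 peaked at CT19.0 with 0.10 ± 0.03 (adjusted p = 0.0181), C1orf198 at CT18.4 with 0.11 ± 0.03 (adjusted p = 0.0137) and RPF2 at CT15.3 with 0.24 ± 0.07 (adjusted p = 0.0257). PTPLAD1 peaked at CT5.38 with 0.12 ± 0.02 (adjusted p = 0.00104). In wild-type RNA the fitted peaks were CT3.87 for CAPZA1, CT4.21 for MBNL1, CT6.01 for RPF2, CT16.7 for C1orf198 and CT5.20 for PTPLAD1. These differences between treatments were not tested. BLMH (adjusted p = 0.974) and ARNTL (adjusted p = 0.729) did not pass. With replicate 1 left out, 1215 genes passed and MBNL1 was the 1 member among them.

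In knockdown footprints RPF2 and ARNTL had too few reads to be tested. Of the other 5 members 4 passed, where 18.5% of 10635 genes did. MBNL1 had an amplitude of 0.24 ± 0.05 and a peak at CT18.3 (adjusted p = 0.00111). The adjusted p was 0.0335 for C1orf198, 0.0352 for PTPLAD1, 0.0492 for CAPZA1 and 0.789 for BLMH. CAPZA1 did not pass with the replicate block (adjusted p = 0.0538), the authors' scaling factors (0.058) or no filter (0.0918), and with no filter PTPLAD1 (0.0587) and C1orf198 (0.067) did not pass either. None of the 4 passed with a drift, at adjusted p of 0.388 to 0.907. Of the 4, CAPZA1 and MBNL1 passed without replicate 1, where 474 genes did, and PTPLAD1 passed without replicate 2, where 804 did.

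Genes that work with each member were counted in the same knockdown contrast. Over all genes tested, 41.8% were higher and 39.9% lower in knockdown RNA, and 37.4% higher and 38.1% lower in footprints, at an adjusted p of 0.05 (limma), or 81.7% and 75.5% in either direction. Of the called genes 49.5% were higher in footprints, and 61.4% with the authors' scaling factors. The list counts are read against these large backgrounds.

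Of 27 ribosome assembly genes, all chosen around large subunit assembly, in which RPF2 acts, except for the small subunit factor IMP4, 15 were higher and 6 lower in RNA, with a median of 0.12, and 17 were higher and 4 lower in footprints, with a median of 0.17. In footprints 20 were higher and 3 lower with the authors' scaling factors, with a median of 0.26, and 12 higher and 4 lower without replicate 1, with a median of 0.07. None fell as far as RPF2. BOP1 and IMP4, which is of the same Brix family as RPF2, rose most in RNA, by 0.49 ± 0.06 (adjusted p = 3.59e-09) and 0.42 ± 0.04 (adjusted p = 6.63e-11), and HEATR3 and WDR74 fell most, with −0.31 ± 0.04 (adjusted p = 1.56e-09) and −0.30 ± 0.08 (adjusted p = 0.00131). Of the other Brix family members, RPF1 had 0.13 and PPAN 0.13, both past the threshold, and BRIX1 0.00 (adjusted p = 0.982), although BRIX1 footprints fell by 0.29 (adjusted p = 3.46e-08). WDR74 overlaps a U2 small nuclear RNA gene, which makes its total RNA count uncertain. In footprints WDR74 rose by 0.26 (adjusted p = 1.56e-07, limma), and BOP1 had 0.03 (adjusted p = 0.646). RRS1, the partner of RPF2, rose by 0.36 ± 0.07 in RNA (adjusted p = 4.95e-05). The 5S ribonucleoprotein proteins RPL11 and RPL5 had 0.21 (adjusted p = 8.54e-12) and 0.00 (adjusted p = 0.988) in RNA, and RPL5 footprints rose by 0.24 (adjusted p = 0.00013). Both have near-identical pseudogene copies that make ribosomal protein counts uncertain.

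Of 16 actin capping genes, 12 were tested; 6 were higher and 5 lower in RNA, and 4 higher and 4 lower in footprints. CAPZA2, the other widely expressed alpha subunit, was higher by 0.11 ± 0.02 in RNA (adjusted p = 2.32e-06), and CAPZB, the beta subunit, had −0.03 (adjusted p = 0.056). In footprints CAPZA2 had 0.05 (adjusted p = 0.253, limma) and CAPZB rose by 0.10 (adjusted p = 0.000425). The RNA of the capping protein partner genes CD2AP and LRRC16A fell most, with −0.68 and −0.34, and SH3KBP1 and RLTPR rose most, with 0.43 and 0.33. RLTPR had −0.01 in footprints (adjusted p = 0.941, limma). The median was 0.04 in RNA and 0.02 in footprints. With the authors' scaling factors 6 were higher and 4 lower in footprints, with a median of 0.12.

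Of 12 genes of very long chain fatty acid elongation, 9 were tested; 3 were higher and 3 lower in RNA, and 3 higher and 5 lower in footprints, with medians of −0.01 and −0.10. The dehydratase paralogs went opposite ways: PTPLB fell by 0.54 ± 0.02 on the log2 scale (adjusted p = 8.28e-20) and PTPLA rose by 0.48 ± 0.06 (adjusted p = 6.16e-09). HSD17B12, the ketoacyl-CoA reductase, had −0.47 and the elongase ELOVL1 0.72. With the authors' scaling factors 3 were higher and 3 lower in footprints.

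Of 17 cytosolic peptidases beside BLMH, 6 were higher and 4 lower in RNA, and 9 higher and 5 lower in footprints, with medians of 0.03 and 0.07. With the authors' scaling factors 11 were higher and 2 lower in footprints, with a median of 0.17. LAP3 and CNDP2 rose most in RNA, by 0.50 and 0.44, and NLN and NPEPPS fell most, with −0.36 and −0.16, although NPEPPS footprints rose by 0.09 (adjusted p = 0.0214). Without replicate 2, 9 of the 17 passed in footprints in either direction, against 14 with both.

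Of 15 alternative splicing regulators beside MBNL1, 2 were higher and 11 lower in RNA, with a median of −0.17, and 2 higher and 12 lower in footprints, with a median of −0.26. With the authors' scaling factors 3 were higher and 9 lower in footprints, with a median of −0.16. The paralogs MBNL2 and MBNL3 fell by less than MBNL1, with −0.21 ± 0.04 (adjusted p = 8.98e-06) and −0.16 ± 0.07 (adjusted p = 0.0334) in RNA. STAU1 and TIA1 fell most, with −0.55 and −0.54, and CELF2 and PTBP1 rose most, by 0.99 and 0.07, although PTBP1 had −0.14 in footprints. Each fall in this list was smaller than that of MBNL1.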

How the data were processed

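Total RNA and ribosome footprints of U2-OS cells were sequenced in 96 libraries, 48 groups of 2 replicates. Per the submitters' processing notes, the tools were STAR 2.3.0e for alignment, HTSeq 0.5.4p1 for gene counts and DESeq2 (version not given in the sources used here) for normalisation, with the build GRCh37 (hg19). What the authors deposited is a signal, the gene counts of a library over its size factor. Whole reads were recovered from 100% of the values within 0.001 read. Each of the 8 tables holds 1 treatment, assay and replicate, with 1 column for each time. Totals were 2.56 to 20.1 M reads in total RNA and 2.50 to 5.82 M in footprints. Reads carry no molecular identifiers, and no floor in reads was applied to single values.

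Recovered reads of each assay were given TMM factors with edgeR 4.0.16, filtered by filterByExpr with a minimum count of 10 and fitted with limma-trend (limma 3.58.1, R 4.3.3, robust) on log2(CPM + 0.25). The knockdown effect was the mean over 12 times, with 1 mean per treatment and time; the efficiency difference was that of footprints minus total RNA in a joint fit. Rhythm was an F test of both harmonic terms of a 24 h period, separately in the 24 libraries of a treatment and assay. Threshold was a Benjamini-Hochberg adjusted p of 0.05 over all genes tested, and adjusted p-values are from limma. These fits were also run on simulated counts with known changes but no replicate offset or drift, so that run does not bear on either. The edgeR quasi-likelihood test on recovered reads was an alternative, as were other scalings, no filter, a pseudocount of 1, a replicate block, a linear drift, leaving out each replicate and leaving out the 2 shallow libraries. The alternatives for the SD over times, the spread without the replicate offset and for the list counts were chosen after seeing the data.

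The members, the lists and the tests were chosen with earlier results of these data known, so the knockdown contrast of the members and ARNTL has no p. Genes named besides these were other strong falls from earlier results, list paralogs, the 2 largest called changes each way in total RNA per list, and the 2 nearest genes per member; the steady genes, RRS1, RPL5 and RPL11 were named after their values were seen. In wild-type total RNA, libraries of the same replicate number deviated together in all 66 pairs of times (correlation 0.321 to 0.565), so the numbers pair samples there. Promoter sequences are RefSeq's (GRCh38.p14), a build other than that of the reads.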

Additional observations from a re-analysis of the deposited data

How the results depend on the processing

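Every knockdown difference of the 6 genes and ARNTL in total RNA and footprints kept its direction under every alternative run, and all but 3 moved by less than the spread between replicates. The exceptions were RPF2 in total RNA at −3.07 and ARNTL in footprints at −3.51, both with a pseudocount of 1, and BLMH in footprints at −1.38 with the authors' scaling factors. Efficiency differences near 0 were less stable. With the authors' scaling factors PTPLAD1 had 0.12, BLMH 0.15 and C1orf198 0.0724, a change of sign. With a pseudocount of 1 ARNTL had −1.07. Leaving out 1 replicate gave −0.0111 to 0.121 for BLMH, where the value without replicate 1 changed sign, and −0.0885 to 0.0386 for C1orf198, where the value without replicate 2 did. It also gave 1867 to 2556 genes with an efficiency change, against 3465, and 9 to 14 called cytosolic peptidases in footprints.

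Rhythm calls depended most on the drift term. With it, 24 genes passed in wild-type total RNA, 7 in wild-type footprints, 589 in knockdown total RNA and 261 in knockdown footprints. Wild-type total RNA amplitudes were then 0.0995 for RPF2, 0.0256 for CAPZA1, 0.0190 for PTPLAD1, 0.0430 for C1orf198 and 0.0351 for MBNL1, and the wild-type footprint amplitude of C1orf198 was 0.0426. Knockdown total RNA amplitudes were 0.215 for RPF2, 0.0550 for CAPZA1, 0.0596 for PTPLAD1 and 0.0668 for C1orf198. Knockdown footprint amplitudes were 0.0541 for CAPZA1, 0.0374 for PTPLAD1, 0.125 for C1orf198 and 0.167 for MBNL1. None of these passed. With the replicate block, 4935 genes passed in wild-type total RNA and 1348 in wild-type footprints, BLMH passed in wild-type total RNA at 0.0494, CAPZA1 at 0.16 no longer passed in knockdown footprints, and no other call of the members changed; in the knockdown contrast knockdown and wild-type libraries of the same number shared only a number (correlation −0.11 to 0.157 in total RNA). In knockdown footprints CAPZA1 also missed the threshold with the authors' scaling factors (0.16) and with no filter (0.16), as did PTPLAD1 (0.11) and C1orf198 (0.17) with no filter.

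Leaving out 1 replicate gave 1605 to 2887 genes in wild-type total RNA, 135 to 497 in wild-type footprints, 1215 to 1981 in knockdown total RNA and 474 to 804 in knockdown footprints. Wild-type total RNA amplitudes ranged from 0.0651 to 0.105 for CAPZA1, 0.0966 to 0.117 for PTPLAD1 and 0.0978 to 0.136 for MBNL1. Knockdown total RNA amplitudes ranged from 0.206 to 0.295 for RPF2, 0.0826 to 0.138 for CAPZA1, 0.101 to 0.136 for PTPLAD1 and 0.0685 to 0.159 for C1orf198. Knockdown footprint amplitudes ranged from 0.0728 to 0.176 for PTPLAD1, 0.163 to 0.180 for C1orf198, 0.0880 to 0.286 for CAPZA1 and 0.212 to 0.306 for MBNL1. The cause of these changes was not tested. Footprint values of RPF2 and ARNTL in knockdown rest on 0 to 15 reads per library, so their size depends on the pseudocount.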
